A study of Homo sapiens with 4 samples.

Results

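This account covers 10 genes that encode the enzymes and cofactors which add or remove m6A (N6-methyladenosine), a methyl mark on adenosines inside mRNA. They are the methyltransferases METTL3, METTL14 and METTL16, the writer complex components WTAP, KIAA1429, RBM15, RBM15B and ZC3H13, and the demethylases FTO and ALKBH5. They were chosen by name, and each was looked up by gene symbol in the authors' 2 lists of m6A peaks. Of the 10 genes, 8 had a peak, among 8220 genes with a peak in either list. METTL3 and METTL14 had no listed peak in either condition. KIAA1429 is the symbol in the files for the gene now called VIRMA.

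The cells were CaSki, an established line of human cervical carcinoma epithelium. Control cells were cultured at 37 °C in medium with serum, and heated cells were held at 42 °C for 60 min. The groups carried no other agent or genetic change in the labels. Each condition had 1 library of RNA enriched with an antibody-based m6A kit (MeRIP-seq) and 1 input library without enrichment, 4 libraries in all. The assay finds stretches of RNA in which enriched fragments pile up over background and does not resolve single bases. Since nothing was replicated, no difference below has a replicate check or a p-value, and the read depth behind each peak is unknown.

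As background, most m6A in mRNA is placed in the nucleus by a large complex. METTL3 is its catalytic subunit and METTL14 the partner that helps to hold the RNA. WTAP, KIAA1429 and ZC3H13 hold the complex together and keep it in the nucleus, and the RNA-binding proteins RBM15 and RBM15B bring it to its targets. METTL16 is a separate enzyme with few known RNA targets, one of which is the mRNA of MAT2A, the enzyme that makes the methyl donor S-adenosylmethionine. FTO and ALKBH5 belong to the AlkB family of iron-dependent dioxygenases and can remove the methyl group. A peak in one of these genes is read here as m6A on that gene's own transcript, by the gene assignment in the files. The sources used here do not say whether the input library served as background for the peaks, and this reading was not tested. A peak does not measure the activity of the encoded protein.

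The control list held 14367 peaks in 7138 genes and the heat list 15472 peaks in 7112 genes. The authors' fold enrichment, the enriched signal over the caller's background, had a median of 43.3 over all control peaks and 31.6 over all heat peaks. The sources used here do not give how the libraries were scaled to each other, so folds of the 2 lists are set side by side and are not read as a change. The authors' significance score is the caller's p-value on a log10 scale multiplied by minus 10. Its lowest listed value was 50 in both lists, and it had a plateau at 3100. A false discovery rate of 100% was listed for 48.5% of all control peaks and 53.2% of all heat peaks, and for 8 of the 25 control and 5 of the 21 heat peaks of the writers and erasers. All of their peaks found in 1 list had this rate, except that of METTL16 (16.2%). None of their peaks had a low rate. The lowest was 16.1% in control (a WTAP peak) and 20.8% in heat (the FTO peak). Their peaks at the plateau had 18.5% in control and 34.4% in heat. Of 8 epithelial marker genes 6 had a peak, 3 in both lists and 3 in heat alone (KRT5, KRT17 and EPCAM). They held 8 control and 16 heat peaks in all. Among all genes with a peak, 73.4% were in both lists, 13.2% in heat alone and 13.5% in control alone. Of 4 endothelial markers 1 had a peak (CDH5, in control alone), of 5 fibroblast markers 1 (COL1A1, in both lists) and of 5 immune markers 0. The part of these marker differences in the results below was not tested. The input libraries' RNA levels were not analysed here, so less m6A on a transcript and less of the transcript itself cannot be told apart.

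Of the 8 writer and eraser genes with a peak, 7 had one in both conditions (73.4% of all genes with a peak did), 1 in control alone (13.5% of all genes) and 0 in heat alone (13.2% of all genes). The 7 shared genes were WTAP, KIAA1429, RBM15, RBM15B, ZC3H13, FTO and ALKBH5, and METTL16 was listed in control alone. Nothing particular to the writers and erasers is read from this count. Together the genes held 25 control peaks and 21 heat peaks. A heat peak covered at least 1 base of 20 of the 25 control peaks (80.0%), beside 71.7% of the whole control list. A control peak covered 20 of the 21 heat peaks (95.2%), beside 66.7% of the whole heat list.

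These peaks lay in the upper part of each list. In the control list 18 of the 25 had a fold above the list's median and 17 a score above its median. In the heat list 19 of the 21 passed the median fold and 17 the median score. Their median fold was 80.3 in control and 69.5 in heat, beside 43.3 and 31.6 over all peaks. Peaks with high scores were found in both lists more often than weak ones, whatever their gene: 60.4% of control peaks in the lowest decile by score had no heat counterpart, and 1.60% in the highest. The writer and eraser peaks found in 1 list are therefore given below with the share for their own decile.

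**Figure D1:**
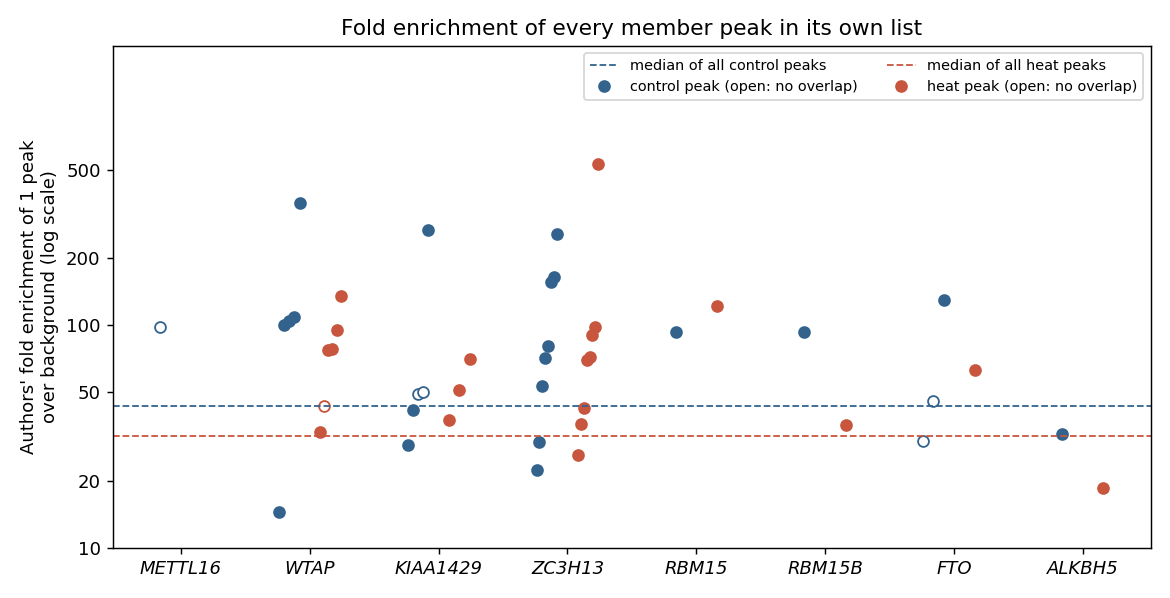
Fold enrichment of every writer and eraser peak (1 point per peak, log axis), by gene, for the control list (blue) and the heat list (red). Open points have no overlapping peak in the other list; the dashed lines are the medians of all peaks, 43.3 in control and 31.6 in heat. Of the points, 18 of 25 control and 19 of 21 heat peaks lie above their own list's line, and how the lists were scaled to each other is unknown.

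The catalytic pair of the complex had no entry. METTL3 and METTL14 were in neither list, whereas all 5 cofactors were in both. Having no listed peak was not particular to this pair. It also held for 3 of 6 further adenosine methyltransferases and partners and for 4 of 13 m6A readers. In addition, 1 line of the heat list was not analysed here. The caller numbered its peaks along each chromosome, and the lists leave out many of these numbers. Around METTL3, on chromosome 14, 15 numbers were unlisted between the peaks of the nearest listed neighbours in control (CHD8 and LRP10), and 13 in heat (TOX4 and MMP14). Around METTL14, on chromosome 4, 28 numbers were unlisted in control (ARSJ and USP53) and 25 in heat (ARSJ and SEC24D). The neighbours were taken from the RefSeq gene order of GRCh38.p14. An unlisted number may belong to any site between these neighbours, so the lists do not show that the METTL3 and METTL14 transcripts lack m6A.

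METTL16 was the member with a peak high by fold and score in 1 condition. Its peak spanned 1439 bases on chromosome 17, positions 2322452 to 2323890 (hg19, the build of all positions here), and was assigned to transcript NM_024086. In the control list it had a fold of 98.5 and a score of 1586, and no analysed peak of the heat list touched it; whether the 1 heat line not analysed here belonged to METTL16 or another of these genes is unknown. Its fold exceeded that of 81.3% of control peaks. In its score decile, the ninth from the low end, 4.73% of peaks (68 of 1437) had no heat counterpart. Of the 7 writer and eraser peaks in it, the METTL16 peak was the only one without a counterpart. Among the 1108 genes listed in control alone, 38 had a peak with a higher score and 97 one with a higher fold. In the heat list 5 caller numbers were unlisted between the flanking peaks, which belong to MNT and PAFAH1B1.

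ZC3H13, a zinc finger protein that anchors the writer complex in the nucleus, had the most peaks and the same regions in both conditions. It held 8 peaks in each list over a stretch of 53054 bases on chromosome 13, and the boundaries of each were the same before and after heat. Among all genes, 1.70% of those in the control list (121) and 2.73% of those in the heat list (194) had at least 8 peaks. Of the 100 genes with at least 8 peaks in both lists, 7 had identical boundaries throughout, ZC3H13 among them. Identical boundaries were common: 47.2% of all control peaks had them, and 43.8% of all heat peaks. Whether the caller's regions follow exon limits was not tested.

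Along ZC3H13 the order of the peaks by fold differed between the lists. The most 3′ region was assigned to transcript uc001vaq.2 and the others to uc001vat.1. From the 5′ to the 3′ end, the control folds were 22.3, 53.4, 165, 257, 29.8, 157, 80.3 and 71.5. The heat folds at the same 8 regions were 26.2, 69.5, 90.7, 72.1, 98.3, 532, 35.9 and 42.5. In control the highest fold was at the fourth region, positions 46559432 to 46559896. In heat it was at the sixth, positions 46549418 to 46549973, where 5 of the 15472 heat peaks had a higher fold. By score, the sixth region came first in both lists, at the plateau of 3100, and the fourth came next. The most 5′ region, positions 46594584 to 46594692, was the weakest in both lists by fold and by score (59.5 in control and 92.5 in heat).

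WTAP, which brings the catalytic pair to nuclear speckles, had 5 control and 6 heat peaks on chromosome 6, and every control peak had a heat counterpart. More peaks in heat were found in 25.0% of all genes in both lists, fewer in 20.6%, and equally many in 54.3%. The additional WTAP peak was a short region of 56 bases, positions 160160022 to 160160077, with a fold of 43.1 and a score of 145. Of the heat peaks in that score decile, 44.3% had no control counterpart. Between the flanking control peaks, both in WTAP, 1 caller number was unlisted.

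The regions present in both lists ran from the first listed peak of WTAP to the last and were not all assigned to 1 transcript. The third was assigned to NM_152857, the fourth to uc003qso.4 and the others to NM_004906. From 5′ to 3′, the control folds at these 5 regions were 100, 14.5, 109, 104 and 353. The heat folds were 77.8, 77.5, 136, 33.3 and 95.5. In control the last region, positions 160176060 to 160176774, had the highest fold and the highest score (2707). In heat both were highest at the third, positions 160169223 to 160170344 (score 1474), which the files assign to transcript NM_152857. The second region, 128 bases at positions 160164697 to 160164824, had the lowest fold in control, below all but 3.36% of that list, and a fold above 88.0% of the heat list. How the lists were scaled to each other is unknown, and the difference of these folds was not tested.

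KIAA1429, a scaffold that directs methylation towards the 3′ end of messages, had 5 control and 3 heat peaks on chromosome 8. By rising position, the control folds were 49.9, 267, 29.0, 41.7 and 49.1. The 3 middle regions also had a heat peak, with folds of 70.4, 37.3 and 51.0. The regions found in control alone were thus the outermost ones. One spanned 752 bases at positions 95523206 to 95523957 (score 119), the only KIAA1429 peak that the files assign to NM_183009, and the other 123 bases at positions 95543191 to 95543313 (score 195). All other KIAA1429 peaks were assigned to NM_015496, and RefSeq lists both transcripts under VIRMA. In the score deciles that hold these peaks, 45.8% and 29.2% of peaks had no heat counterpart. Between the flanking heat peaks 5 and 12 caller numbers were unlisted.

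The region with the highest fold in KIAA1429 was the same in both lists, starting at position 95531213 in control and 95531232 in heat and ending at 95531704. Its score was the highest of the gene in control (1149) and the lowest of the gene in heat (195), where its false discovery rate was listed at 100%. The region at positions 95541298 to 95541570 had scores of 1105 in control and 1360 in heat. Fold and score thus ordered the KIAA1429 peaks differently, also within the heat list.

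RBM15 and RBM15B, related RNA-binding proteins that recruit the complex, each had 1 long peak in both conditions. The RBM15B region covered 6638 bases on chromosome 3, positions 51428699 to 51435336, with identical boundaries in both lists. It was the 17th longest of the control list and the 18th longest of the heat list. Its fold was 93.3 in control and 35.8 in heat, and its score 3100 and 316. The RBM15 region on chromosome 1 began at position 110881945 in both lists and ended at 110885312 in control and at 110885132 in heat. It had a fold of 93.5 in control and 122 in heat, and its score was at the plateau of 3100 in both lists. The control folds of these related genes were thus close within 1 list, while in the heat list RBM15 stood above 95.4% of peaks and RBM15B above 57.3%.

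**Figure D2:**
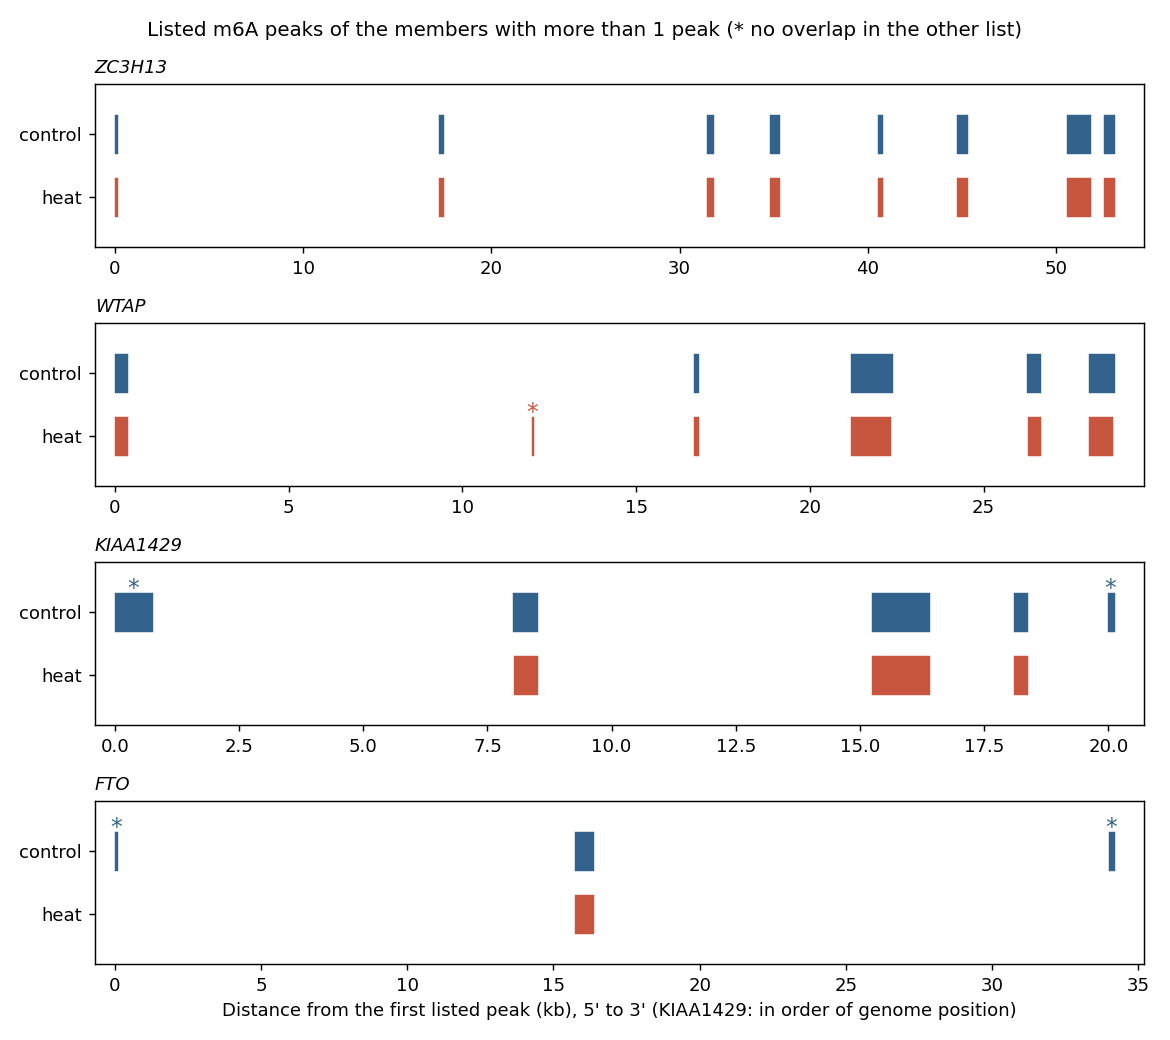
Listed peaks of ZC3H13, WTAP, KIAA1429 and FTO in control (blue) and heat (red), drawn to scale as distance in kb from the first listed peak; ZC3H13, WTAP and FTO run 5′ to 3′ and KIAA1429 by genome position. An asterisk marks a peak with no overlap in the other list: 1 heat peak of WTAP, 2 control peaks of KIAA1429 and 2 of FTO, while all 8 ZC3H13 regions match.

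FTO, the first of the erasers, had 3 control peaks and 1 heat peak on chromosome 16, all assigned to NM_001080432. The middle region of 628 bases, positions 53859776 to 53860403, was present with the same boundaries in both lists, with a fold of 130 and a score of 1783 in control and a fold of 63.2 and a score of 1047 in heat. The regions on either side were short and found in control alone. The first, 78 bases at positions 53844052 to 53844129, had a fold of 30.3 and a score of 57.8, close to the lowest listed score of 50. The second, 144 bases at positions 53878067 to 53878210, had a fold of 45.4 and a score of 100.1. In these score deciles 60.4% and 45.8% of peaks had no heat counterpart, and 7 and 10 caller numbers were unlisted between the flanking heat peaks. The same numbers of peaks, 3 in control and 1 in heat, were found for 111 other genes.

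ALKBH5, the other eraser, had 1 peak in each list with identical limits, 1461 bases on chromosome 17 at positions 18086867 to 18088327. Its fold was 32.6 in control and 18.5 in heat, and its score 576 and 325. These were the lowest folds of any single-peak member, and both lay below the median of their list. By score the ALKBH5 peak stood above 66.1% of control peaks and 62.5% of heat peaks.

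Of the 20 shared regions, 15 had identical boundaries and 5 differed, 3 in WTAP and 1 each in KIAA1429 and RBM15. All 5 differed at 1 end only, and in all 5 the heat region was the shorter, by 8 to 180 bases. Among the 3428 regions of all genes that paired one to one with other boundaries, 89.2% differed at 1 end only and 59.3% were shorter in heat, with a median length difference of 94 bases. The writer and eraser regions were thus resized by small amounts within the range of the whole list. Of the bases under control peaks, heat peaks also covered 95.8% in WTAP, 94.7% in RBM15, 73.9% in FTO and 67.9% in KIAA1429.

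**Figure D3:**
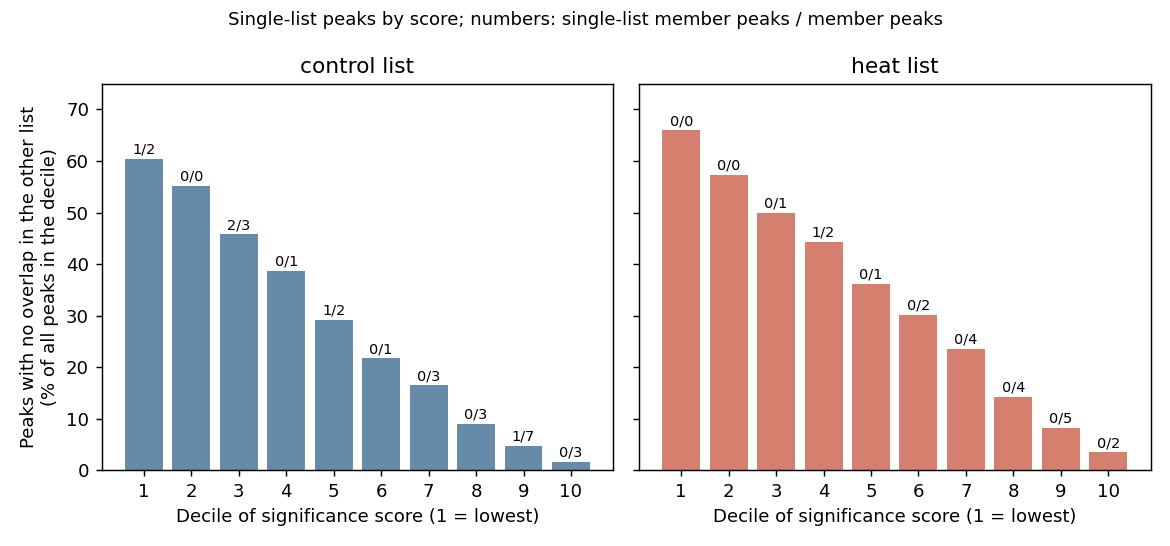
Share of all peaks with no overlap in the other list (bars, percent) in each score decile of the control list (left) and the heat list (right), from the lowest (1) to the highest (10). The number over each bar gives writer and eraser peaks without a counterpart out of those in that decile; in the control list 4 of the 5 lie in deciles 1 to 5 and the other, METTL16, in decile 9, where 4.73% of all peaks have no counterpart.

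The protein location of these genes was read from the files' annotation. In its gene ontology columns, 6 of the 8 (WTAP, KIAA1429, RBM15, ZC3H13, FTO and ALKBH5) carried the term nuclear speck, a nuclear body rich in splicing factors. Of all 7459 genes with a cellular component term, 133 carried it (1.78%). METTL16 and RBM15B did not. Writer complex components are known from nuclear speckles, so this share follows in part from how the genes were chosen.

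Other genes of m6A metabolism were compared through lists chosen by function. Among 6 further adenosine methyltransferases and partners, CBLL1 and PCIF1 were in both lists, METTL4 was in control alone, and METTL5, TRMT112 and ZCCHC4 had no listed peak. Among all genes with a peak, 73.4% were in both lists and 13.5% in control alone. CBLL1, also called HAKAI, is a further component of the writer complex. Its single peak at chromosome 7, from position 107398588, had a fold of 103 in control and 16.2 in heat. PCIF1, which methylates the adenosine next to the mRNA cap, had 1 peak in each list at different places on chromosome 20. The control peak, positions 44563317 to 44563443, had a fold of 27.8 and a score of 277. The heat peak, positions 44567620 to 44567762, had a fold of 12.0 and a score of 55.3, close to the lowest listed score of 50. In these score deciles 21.7% of control peaks and 66.0% of heat peaks had no counterpart. The METTL4 peak was weak, with a fold of 33.5 and a score of 83.8. In its score decile 55.1% of control peaks had no heat counterpart.

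Of 6 genes listed under methyl donor supply, AHCYL1, AHCYL2 and MTR were in control alone, beside 13.5% of all genes with a peak. MAT2A was in heat alone, beside 13.2%, and MAT2B and AHCY were in neither list. Of the 4 with a peak, 0 were in both lists, beside 73.4% of all genes with a peak. AHCYL1 and AHCYL2 were placed in this list as relatives of AHCY by name, and whether they take part in donor supply was not tested. MAT2A is the known METTL16 target named above. Its heat peak spanned positions 85770793 to 85772403 on chromosome 2, with a fold of 21.9 and a score of 63.0. That score lay in the lowest decile of the heat list, where 66.0% of peaks had no control counterpart, and 18 caller numbers were unlisted between the flanking control peaks. The MAT2A peak was near the lower limit of listing, and a link between its listing and that of METTL16 was not tested. The control-only peaks of AHCYL1, MTR and AHCYL2 were weak too, with scores of 51.7, 69.3 and 119. In their score deciles 60.4%, 55.1% and 45.8% of control peaks had no heat counterpart. Nothing particular to methyl donor supply is read from these entries.

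**Figure D4:**
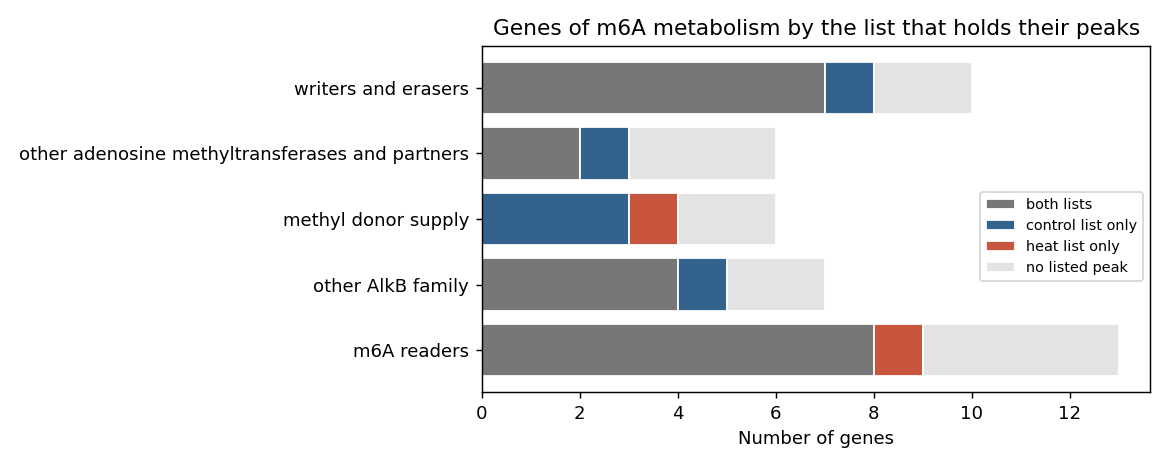
Number of genes (horizontal axis) with listed peaks in both lists (grey), control only (blue), heat only (red) or neither (light grey), for the writers and erasers and 4 further lists. Writers and erasers have 7 genes in both lists and 1 in control only, and methyl donor supply has 3 in control alone and 1 in heat alone.

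The relatives of the erasers were looked up in the same way. Of 7 other AlkB family genes, 5 had a peak, and 4 of these (ALKBH1, ALKBH2, ALKBH4 and ALKBH6) were in both lists, beside 73.4% of all genes with a peak. ALKBH8, a tRNA-modifying enzyme, was listed in control alone (13.5% of all genes with a peak were), and ALKBH3 and ALKBH7 in neither list. ALKBH1 had 2 peaks in each list, the stronger with a fold of 734 in control and 144 in heat. ALKBH4 had 1, with folds of 180 and 56.8 and identical boundaries. ALKBH2, a DNA repair enzyme, had 3 control peaks and 1 heat peak, the same numbers as FTO. The ALKBH8 peak had a fold of 43.6 and a score of 116, and 45.8% of control peaks in that score decile had no heat counterpart.

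Of 13 m6A readers, proteins that bind the modified base, 9 had a peak, and 8 of these were in both lists, beside 73.4% of all genes with a peak. HNRNPC was in heat alone (13.2% of all genes with a peak were), and 4 had no listed peak. The HNRNPC peak had a fold of 15.4 and a score of 150, and 36.2% of heat peaks in that score decile had no control counterpart. The 9 readers with a peak held 32 control and 29 heat peaks. EIF3A, YTHDF2, PRRC2A and YTHDF1 had a peak at the score plateau of 3100 in both lists.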

How the data were processed

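Per the submitters' processing notes, cutadapt 1.9.3 and STAR were used with the genome build hg19. The sources used here give no version of STAR and neither the version nor the settings of the peak caller. Peak names begin with MACS, per the file headers. The authors deposited 1 peak list per condition; each condition has 1 enriched and 1 input library, and the sources used here do not say whether the input served as the caller's background. Per the file headers, the deposited score is the p-value on a log10 scale times minus 10, and the deposited fold is a ratio of signal over background. The authors' false discovery rate is taken as percent, since its deposited values reach 100. All are the authors' values for single peaks. In the heat list 1 line was not analysed here.

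From these files, 1 was added to each start, giving 1-based positions. Regions sharing at least 1 base, strand ignored, counted as shared (Python 3.11.15, pandas 2.3.3). Deciles were cut by score, ties by fold. The overlap code was checked on simulated regions. Strands, transcript symbols and the gene order around METTL3, METTL14 and METTL16 came from RefSeq tables of GRCh38.p14. They named the strand of all members with a peak except KIAA1429. RefSeq start positions served only to order the genes, and every peak position is the authors' own in hg19. Every member is named; of the 4 pathway lists, all single-list genes and the 3 shared genes with the lowest rank sums. Other names (ALKBH6, YTHDF1, genes with no peak and cell type markers) were added after their values were seen. One gene of these other lists is not reported here. Members and lists were chosen with earlier results of these data known. Exon, intron and UTR limits were not used here. No test was run.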

Additional observations from a re-analysis of the deposited data

How the results depend on the processing

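Raising the score limit to the pooled median (228), or taking the top 14367 or the top 7183 peaks of each list, kept 7 genes in both lists, METTL16 in control only and 0 in heat only. A fold above the pooled median of 36.5, which keeps 8488 control but 6405 heat peaks, gave 5 genes in both and 2 in control only (METTL16 and RBM15B), left ALKBH5 in neither list, and left 12 shared control peaks and 12 shared heat peaks of the genes. Requiring overlap of at least 50% of both regions kept 20 shared peaks in each list, and identical boundaries 15. Of 32 alternative values, 29 stayed within 1.5 times the reported one. These values were not independent and some could not move. The top 14367 peaks are the whole control list, and the shared control and shared heat peaks of the genes are the same pairs counted from each side. No paired analysis was possible because each group holds 1 library, and no replicate could be left out. Unknown read depth and the unlisted caller numbers limit what a missing peak means.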
